A study of Homo sapiens with 6 samples.

Results

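Kruppel-like factors (KLFs) were followed in cells of the Karpas-45 line, which was established from a T-lineage acute lymphoblastic leukemia, with a hairpin against MEF2C or with a scramble control. The members were the rows of the count tables whose gene identifiers map to KLF2, KLF3, KLF4, KLF6, KLF7, KLF9, KLF10, KLF11, KLF12 and KLF13, which gave 10 genes of 78932 gene rows. Values per library are given in the order of replicate 1, 2 and 3, and values after ± are SDs over the 3 libraries of a group. Each group held 3 libraries, named technical replicates in the labels, and p-values therefore measure only the spread between such libraries. The labels give the scramble cells the genotype WT and the hairpin cells, named shMEF2CKD2, the genotype MEF2C KD, and both are labelled untreated leukemic blasts from bone marrow. The series' text describes 1 GFP-linked lentiviral hairpin against the MADS-box transcription factor MEF2C and a sort of GFP-positive cells 120 hours after transduction, and it gives no such account of the scramble vector. The comparison asks what changes when MEF2C is targeted in 1 line by 1 hairpin.

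KLFs are transcription factors that bind GC-rich and CACCC sequences through C2H2 zinc fingers at the carboxy terminus, and they differ in the regions that recruit partners. KLF3, KLF8 and KLF12 bind the corepressor CtBP, KLF9, KLF10, KLF11 and KLF13 bind SIN3A, and KLF2, KLF4, KLF6 and KLF7 are grouped with activators. In T cells KLF2 is known for quiescence and for the expression of receptors used in leaving the thymus and recirculating, and MEF2 factors acting downstream of the kinase ERK5, as well as FOXO factors, are known inputs to its transcription.

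Gene totals ran from 45560303 to 97077335 reads per library, and the detection floor of 3 reads lay between 0.0309 and 0.0658 CPM, the reads of a gene scaled to a common library total. MEF2C itself drew 2, 1 and 0 reads in the scramble and 2, 0 and 0 reads in the hairpin libraries. It was at or under the floor in every library, so the targeted gene cannot check the labels, and the differences below cannot be tied to a loss of its mRNA. Of 12 T-lineage markers, all tested, 8 were higher and 1 was lower. Over all tested genes 13.5% were higher and 15.3% lower in the edgeR test described below. The T-lineage markers summed to 3940 to 4034 CPM in scramble and to 4171 to 4258 CPM in hairpin libraries. Of 12 myeloid markers 4 were tested and 1 was higher, with sums of 5.85 to 6.36 CPM and of 7.01 to 7.46 CPM. The 8 B-lineage markers (2 tested, none called by edgeR) summed to 3.09 to 3.64 and to 4.18 to 4.32 CPM, and the 8 erythroid markers (3 tested, none called by edgeR) to 1.97 to 7.29 and to 2.24 to 3.30 CPM. The myeloid call was CEBPA (log2 fold change 0.33, edgeR adjusted p = 0.0280), lost in 6 of 14 alternatives, among them the GC and length correction and the fits without scramble replicate 2 or 3 or hairpin replicate 1 or 3. CD79A, the B-lineage marker with the most reads, had 116 to 170 reads in scramble and 156 to 306 in hairpin libraries, with separate groups in CPM (edgeR adjusted p = 0.114). ELANE, FCGR3A, CD22 and EBF1 had 0 reads in all 6 libraries. Since HEK293T cells made the virus, 8 markers of that source were followed as well (4 tested, 2 higher and 1 lower), and they summed to 24.6 to 26.3 and to 26.9 to 28.3 CPM, with NEFM, NEFL and EPCAM at 0 reads. GPC3 and PODXL were higher, by log2 0.99 and 0.15, and CRABP2 was lower, at -0.51 (edgeR adjusted p = 0.0351, 0.0290 and 0.0153). Each of these 3 calls was lost in 3 to 5 alternatives, and the loss came with leaving out scramble replicate 1, 2 or 3 or hairpin replicate 1, 2 or 3 in at least 1 of them. The part of these markers in the KLF results was not tested. Reads that aligned to more than 1 place took 16.1% of reads in hairpin replicate 3 and at most 6.86% in the other libraries.

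Of the 10 KLFs, 2 rose in the hairpin libraries (KLF3 and KLF10), 4 fell (KLF2, KLF6, KLF7 and KLF13), KLF12 did not pass the test, and KLF4, KLF9 and KLF11 had too few reads to be tested. The largest changes were in the least abundant tested members, a rise of KLF3 by log2 0.98 and a fall of KLF2 by log2 0.77. In the edgeR quasi-likelihood test over 17677 genes with a Benjamini-Hochberg adjusted p under 0.05, 13.5% of genes were higher and 15.3% lower in the hairpin libraries, 2386 and 2711 genes. With an added correction for GC content and gene length, that split became 1861 higher and 3871 lower, and the same 2 and 4 KLF counts were found. The median log2 fold change of the 7 tested KLFs was -0.08, against 0.00 over all tested genes. In 6 of the 7 tested KLFs, the same 6 that were called, the groups were separate in CPM. Over all tested genes, called or not, this held for 39.9%, with the hairpin libraries all higher in 19.5% and all lower in 20.5%. In these bulk RNA samples fewer cells with a transcript and less of it per cell cannot be told apart.

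Promoter sequence was taken from RefSeq on GRCh38.p14 as the 250 bases before each annotated start. Windows of 8 of the 10 members were searched, 15 in all. No window of KLF3 or KLF10 was among those searched, so the counts of matches below do not cover the raised members. The MEF2 consensus, searched on both strands, was present in the single window of KLF2 and in 1 of the 4 windows of KLF12, and in 2.81% of all 34943 windows of the same length. In KLF2 it begins 120 bases before the start, at chr19:16324706-16324715. In KLF12 it begins 190 bases before the start, at chr13:74027069-74027078. The GC box GGGCGG was present in 8 of the 15 member windows (42.5% of all windows), and the CACCC sequence in 6 of the 15 (54.7%). The FOXO sequence GTAAACA was in none of the 15 windows (2.98% of all windows). The sequences below are those of the 3 lowered members with a single annotated start and of the KLF12 window with the MEF2 consensus. They are shown because the MEF2 consensus occurs both in a lowered member and in the one that did not pass the test. GC boxes were not limited to lowered members, since windows of KLF4, KLF11 and KLF12 hold them too. Capitals mark the MEF2 consensus, GGGCGG and CACCC on either strand, and these can share bases. The plus-strand windows are chr19:16324576-16324825 for KLF2 and chr15:31326585-31326834 for KLF13, and the minus-strand windows are chr10:3785210-3785459 for KLF6 and chr13:74026889-74027138 for KLF12.
KLF2: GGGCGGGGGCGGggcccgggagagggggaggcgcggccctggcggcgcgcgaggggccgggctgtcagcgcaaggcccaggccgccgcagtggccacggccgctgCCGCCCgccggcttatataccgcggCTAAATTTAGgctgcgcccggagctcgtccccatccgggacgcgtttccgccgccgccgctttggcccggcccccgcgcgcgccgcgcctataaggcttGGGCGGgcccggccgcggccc
KLF6: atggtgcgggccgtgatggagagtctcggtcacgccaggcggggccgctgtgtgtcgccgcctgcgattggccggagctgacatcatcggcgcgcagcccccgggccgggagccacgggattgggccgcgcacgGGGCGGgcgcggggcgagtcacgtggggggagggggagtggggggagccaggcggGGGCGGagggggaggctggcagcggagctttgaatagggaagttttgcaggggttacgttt
KLF13: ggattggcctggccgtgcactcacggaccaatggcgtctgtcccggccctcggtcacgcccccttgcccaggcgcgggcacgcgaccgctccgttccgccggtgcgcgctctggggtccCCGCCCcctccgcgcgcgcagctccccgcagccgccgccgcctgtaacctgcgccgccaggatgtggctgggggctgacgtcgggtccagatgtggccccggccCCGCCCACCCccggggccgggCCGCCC
KLF12: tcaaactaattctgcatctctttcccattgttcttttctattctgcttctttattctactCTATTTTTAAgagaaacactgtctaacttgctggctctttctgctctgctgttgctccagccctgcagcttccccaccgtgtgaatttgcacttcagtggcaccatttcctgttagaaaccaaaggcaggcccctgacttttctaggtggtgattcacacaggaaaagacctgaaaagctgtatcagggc
The KLF2 window holds 4 GC boxes beside CTAAATTTAG, its MEF2 match, and the KLF6 window holds 2 GC boxes. The KLF13 window holds 3 GC boxes and 1 CACCC, and this KLF12 window holds CTATTTTTAA, its MEF2 match, and no GC box, while another KLF12 window, number 3 of the 4, holds 4 GC boxes. A match describes letters in the window and was not measured as binding, and bases farther from the start were not searched.

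Per kilobase of exon, the members spanned about 2 orders in level and kept the same order in both groups. KLF13 was the highest, at 19.4 ± 0.306 CPM per kilobase in scramble and 18.4 ± 0.0423 in hairpin libraries. KLF12 followed at 12.9 ± 0.517 and 13.1 ± 0.189 CPM per kilobase, KLF10 at 5.84 ± 0.306 and 7.68 ± 0.293, and KLF6 at 3.91 ± 0.111 and 3.40 ± 0.123. KLF7, KLF2 and KLF3 came last, at 1.76 ± 0.0444, 1.30 ± 0.185 and 0.193 ± 0.0378 CPM per kilobase in scramble libraries. In the hairpin libraries these 3 stood at 1.35 ± 0.109, 0.753 ± 0.0852 and 0.382 ± 0.0518 CPM per kilobase. Within each group no library of one member overlapped a library of the next member in this order. KLF12 and KLF13 together took between 81.8% and 83.0% of the summed CPM of the members, and that sum ran from 388 to 397 CPM in scramble and from 382 to 386 CPM in hairpin libraries. Lengths are the union of GENCODE 29 exons, which may differ from the transcripts these cells use.

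**Figure D1:**
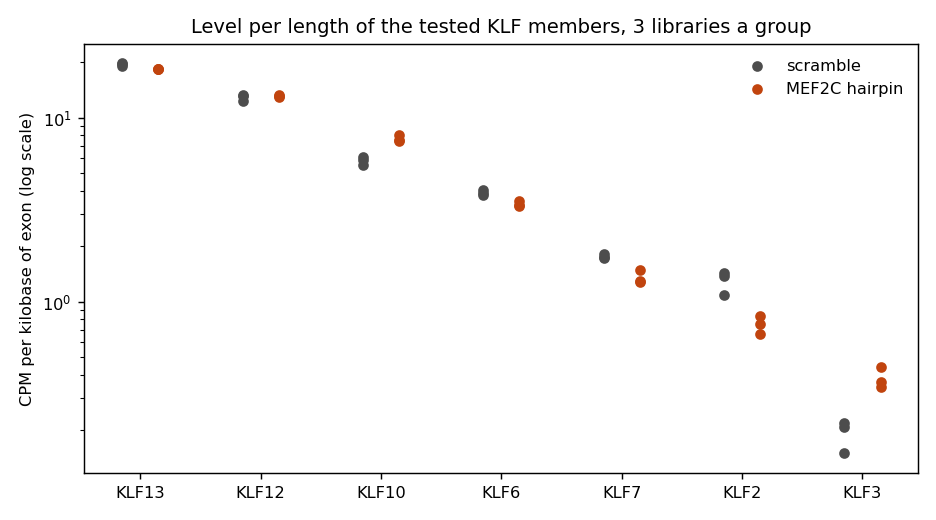
Level per kilobase of exon (CPM per kilobase, log scale) of the 7 tested KLF members in the 3 scramble and 3 MEF2C hairpin libraries, each point a library. The order from KLF13 at 19.4 to KLF3 at 0.193 in scramble libraries is the same in the hairpin libraries.

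Among the activator-type members, KLF2 fell the most. KLF2 (ENSG00000127528.6, chromosome 19, 16324817 to 16327874, GRCh38) measured 2.79, 2.89 and 2.20 CPM with the scramble and 1.52, 1.69 and 1.35 CPM with the MEF2C hairpin. Every hairpin library lay below every scramble library. These values rest on 174, 129 and 132 reads and on 90, 167 and 70 reads. The log2 fold change was -0.77 (SE 0.175, 95% interval -1.13 to -0.42, edgeR adjusted p = 0.000650), a fall by 41.5%. Of all tested genes with a mean of 1 to 5 CPM, 3.52% were lower and 14.0% higher, and 5.20% of all tested genes had a larger absolute log2 fold change. The divergent transcript KLF2-DT and the processed copies KLF2P1, KLF2P2, KLF2P3 and KLF2P4 had 0 reads in all 6 libraries.

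KLF7, named for its ubiquitous expression, measured 16.1, 16.1 and 16.8 CPM in scramble and 12.0, 13.7 and 11.9 CPM in hairpin libraries. The gene (ENSG00000118263.16) lies on chromosome 2 from 207074137 to 207167267. Its groups were separate, with hairpin replicate 2 nearest to the scramble libraries. The log2 fold change was -0.38 (SE 0.0671, edgeR adjusted p = 2.91e-05), the smallest adjusted p among the lowered members, and of tested genes of 5 to 20 CPM 8.75% were lower and 22.4% higher. KLF6, a broadly expressed member first known as a core promoter-binding protein, measured 23.3, 24.0 and 24.7 CPM in scramble and 20.6, 21.7 and 20.3 CPM in hairpin libraries. This fall was smaller, by 0.20 on the log2 scale with an SE of 0.0529 (edgeR adjusted p = 0.00382), and 23.5% of tested genes of 20 to 100 CPM were lower. KLF6 (ENSG00000067082.15) lies on chromosome 10 from 3775996 to 3785281. KLF4, known for cell cycle arrest and as a reprogramming factor, received 0 reads in each of the 6 libraries (ENSG00000136826.15, chromosome 9, 107484852 to 107490482), and no fold change is given.

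**Figure D2:**
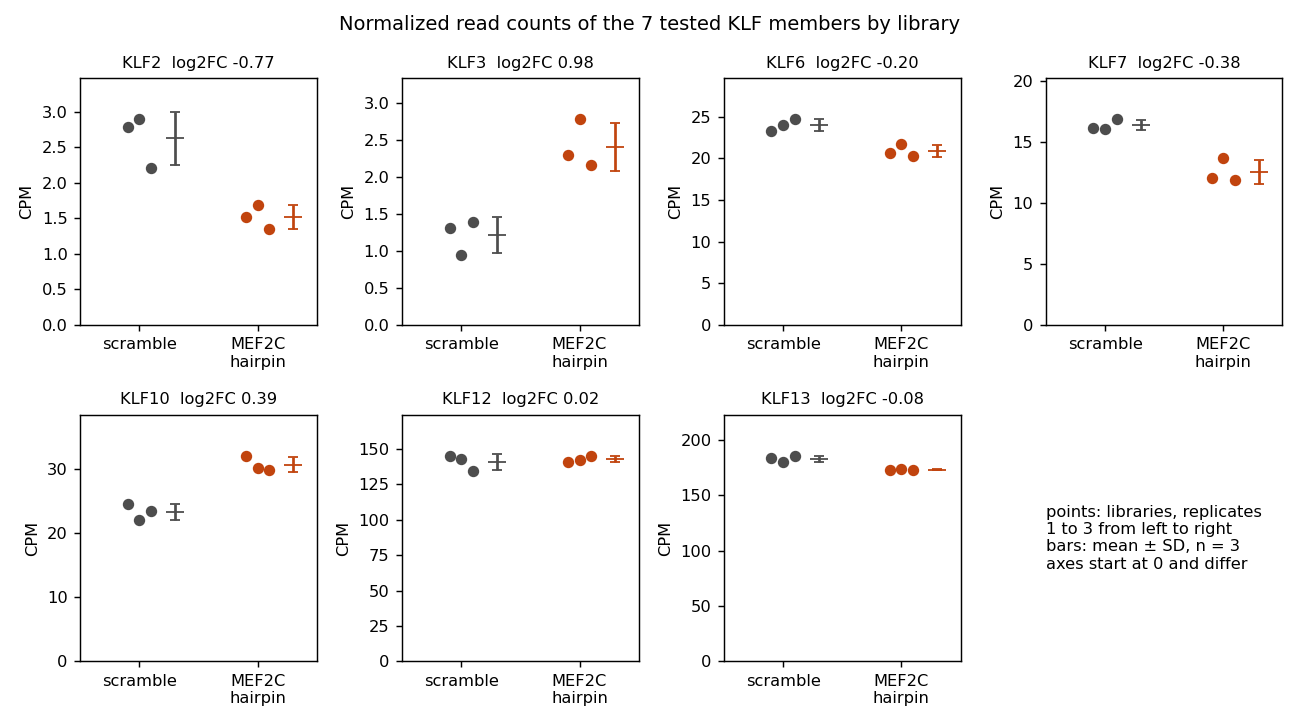
Normalized read counts (CPM, each axis from 0) of the 7 tested KLF members in each library, with the mean and SD of 3 libraries beside the points. The groups are separate for KLF2, KLF3, KLF6, KLF7, KLF10 and KLF13, and KLF12 overlaps, between 134 and 145 CPM.

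The CtBP-binding members differed from each other, with KLF3 higher and KLF12 not past the threshold. KLF3, a repressor of CACCC-dependent genes, measured 1.32, 0.942 and 1.38 CPM in scramble and 2.29, 2.78 and 2.16 CPM in hairpin libraries. Every hairpin library lay above every scramble library, on 82, 42 and 83 reads in scramble and 136, 274 and 112 reads in hairpin libraries. The log2 fold change was 0.98 (SE 0.187, 95% interval 0.61 to 1.36, edgeR adjusted p = 7.06e-05), close to a doubling at a fold of 1.98. Of all tested genes, 2.61% had a larger absolute log2 fold change. KLF3 (ENSG00000109787.13) lies on chromosome 4 from 38664196 to 38701042, and 4.22% of its exonic bases are shared with the antisense gene KLF3-AS1. KLF3-AS1 received 0, 1 and 2 reads in scramble and 13, 11 and 4 reads in hairpin libraries, and was not tested. No source used here gives the strand setting of the counting, so reads of the pair may not be fully separated. The processed copy KLF3P1 received at most 13 reads in any library.

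KLF12, a repressor of the AP-2 alpha gene, was the second most abundant member and measured 145, 143 and 134 CPM in scramble and 141, 142 and 145 CPM in hairpin libraries. The groups overlapped, and scramble replicate 3 was the lowest library. The log2 fold change was 0.02 (SE 0.0270, edgeR adjusted p = 0.636), with a 95% interval of -0.03 to 0.08. KLF12 (ENSG00000118922.19) lies on chromosome 13 from 73686089 to 73995056 in GENCODE 29, and the RefSeq windows above lie beyond that end.

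The ratio of KLF3 to KLF2 turned over between the groups. In CPM it was 0.471, 0.326 and 0.629 in scramble libraries and 1.51, 1.64 and 1.60 in hairpin libraries, so that KLF2 drew more reads in each scramble library and KLF3 more reads in each hairpin library. Per kilobase of exon the ratio stayed under 1, from 0.104 to 0.202 in scramble and from 0.484 to 0.526 in hairpin libraries. This pair was chosen after its values were seen and was not tested.

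The SIN3A-binding members were 1 higher, 1 lower and 2 not detected. KLF10, an early target of TGF-beta signalling also called TIEG1, measured 24.5, 22.1 and 23.5 CPM in scramble and 32.1, 30.3 and 29.9 CPM in hairpin libraries. The groups were separate by more than 5 CPM. The log2 fold change was 0.39 (SE 0.0506, edgeR adjusted p = 1.02e-07), a rise of 31.0% and the smallest adjusted p of the 7 tested members. Of tested genes with a mean of 20 to 100 CPM, 17.0% were higher. KLF10 (ENSG00000155090.15) lies on chromosome 8 from 102648779 to 102655902. KLF11, its closest relative, received 1 read in scramble replicate 3 and 0 in the other libraries (ENSG00000172059.11, chromosome 2, 10042849 to 10054836).

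KLF13, an activator of the chemokine gene CCL5 in T cells, was the most abundant member and changed little, with tight replicates. It measured 184, 180 and 185 CPM in scramble and 173, 173 and 172 CPM in hairpin libraries. The groups did not overlap, and the fall by 5.46% passed the test (log2 fold change -0.08, SE 0.0234, edgeR adjusted p = 0.00716). Among tested genes of at least 100 CPM, 44.9% were lower and 12.6% higher, and their median log2 fold change was -0.05. With the GC and length correction the value for KLF13 was -0.16. KLF13 (ENSG00000169926.11) lies on chromosome 15 from 31326855 to 31435665. KLF9, a glucocorticoid-induced member, received 2, 0 and 0 reads in scramble and 0, 1 and 0 reads in hairpin libraries (ENSG00000119138.5, chromosome 9, 70384597 to 70414624) and lay under the floor in every library.

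The genes whose log2 CPM followed the members most closely over the 6 libraries were listed for the member with the smallest adjusted p in each direction. For KLF10 they were HBP1, PURA and IFT122, with Pearson's r of 0.997, 0.996 and 0.996, and for KLF7 they were EMC4, TRIM71 and DUSP10, with r of 0.998, 0.997 and 0.995. These libraries fall into 2 groups, and any gene that differs between the groups with tight replicates has a high r. HBP1, a transcriptional repressor of cell cycle genes, had a log2 fold change of 0.25, and DUSP10, a phosphatase of p38 and JNK, one of -0.29.

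Among the other KLFs and the related SP factors 3 genes rose and none fell in the edgeR test, where 13.5% of all tested genes were higher and 15.3% lower. Of the 8 other KLF genes 4 were tested, and KLF15, a metabolic regulator, rose from 2.31 ± 0.521 to 3.58 ± 0.287 CPM (log2 fold change 0.62, SE 0.152, edgeR adjusted p = 0.00159). KLF5, KLF8 and KLF16 gave log2 fold changes of -0.18, 0.39 and 0.10 with edgeR adjusted p of 0.162, 0.330 and 0.0983. Of 9 SP factors 6 were tested, with SP1 and SP9 higher. SP1, the founding GC-box factor, went from 184 ± 2.35 to 196 ± 2.75 CPM (log2 fold change 0.09, edgeR adjusted p = 0.00419). SP9 shares 63.7% of its exonic bases with other genes and its groups overlapped. Its call (log2 fold change 0.18, edgeR adjusted p = 0.0218) was lost in 6 of 14 alternatives, with limma-voom, with the GC and length correction, and without scramble replicate 1 or 3 or MEF2C hairpin replicate 1 or 3, with adjusted p from 0.0533 to 0.616 in those 6.

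**Figure D3:**
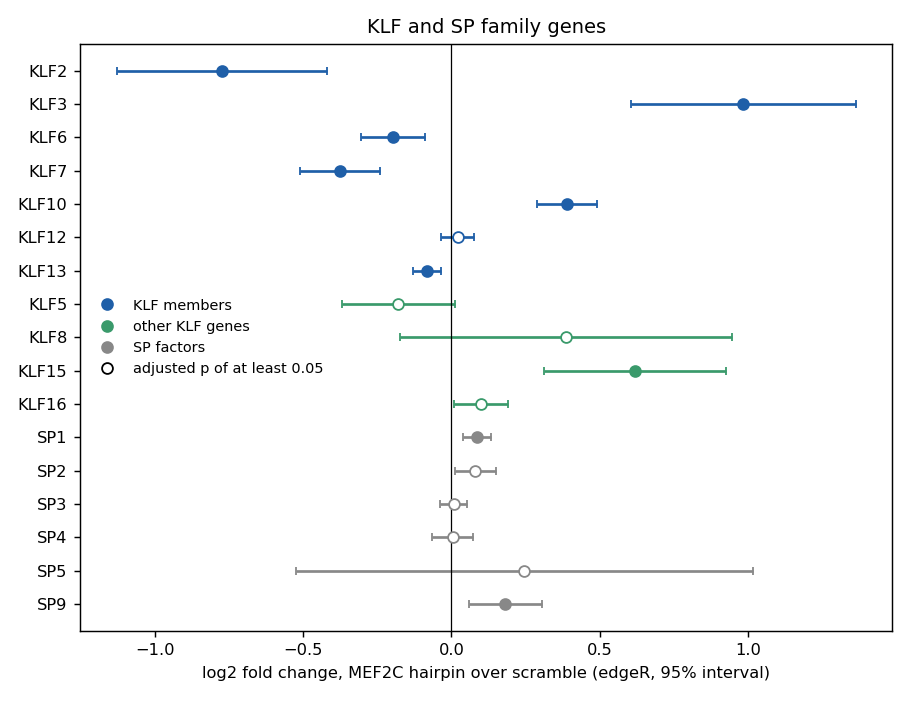
Log2 fold change of the tested KLF and SP genes, MEF2C hairpin over scramble, with 95% intervals from edgeR over 3 libraries a group; filled points passed an adjusted p of 0.05. KLF2 at -0.77 and KLF3 at 0.98 lie farthest from 0 in each direction, and the intervals of KLF8 and SP5 are wide.

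Partners that KLFs recruit changed by small amounts. Of 12 corepressor and coactivator genes, 2 were higher, 1 was lower and the median log2 fold change was -0.01. Among all tested genes 13.5% were higher and 15.3% lower. The SIN3-family scaffold SIN3B fell by 0.12 on the log2 scale (edgeR adjusted p = 0.00345), while SIN3A measured 144 and 140 CPM on average (edgeR adjusted p = 0.240). The acetyltransferase CREBBP rose by log2 0.09 (edgeR adjusted p = 0.00596), but with the GC and length correction its value became 0.03 and passed no longer (adjusted p = 0.441). The call of CREBBP was also lost without scramble replicate 3. The CtBP genes CTBP1 and CTBP2 had log2 fold changes of 0.03 and 0.07 with edgeR adjusted p of 0.319 and 0.153. None of the 6 ubiquitin ligase genes of KLF turnover passed the edgeR test, and their median was 0.04.

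Genes known to act upstream of KLF2 gave 4 lower and none higher of 12 tested by edgeR, and their median log2 fold change was 0.00. Of all tested genes 15.3% were lower. The share was 44.9% at a mean of at least 100 CPM, the class of HDAC7 and MEF2A, and 23.5% at 20 to 100 CPM, the class of FOXO3 and FOXO4. The class IIa deacetylase HDAC7, which binds MEF2 factors, fell from 169 ± 2.36 to 129 ± 3.29 CPM (log2 fold change -0.38, SE 0.0253, edgeR adjusted p = 7.55e-15), with 11.2% of its exonic bases shared with other genes. FOXO3 fell from 58.1 ± 1.25 to 51.5 ± 0.807 CPM (log2 fold change -0.17, edgeR adjusted p = 0.000199). FOXO4, part of which the line carries in a fusion with KMT2A, and MEF2A also passed, at -0.10 and -0.07 (edgeR adjusted p = 0.0429 and 0.0385). The call of FOXO4 was lost in 10 and that of MEF2A in 9 of 14 alternatives, with adjusted p up to 0.143 and 0.271. Single libraries ended the FOXO4 call (scramble replicate 2 or 3, hairpin replicate 1 or 3) and the MEF2A call (scramble replicate 1, any hairpin replicate). The ERK5 gene MAPK7 and its kinase gene MAP2K5 gave -0.08 and 0.06 with edgeR adjusted p of 0.126 and 0.402.

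Known targets of KLF2 in lymphocytes moved in both directions, 2 higher and 2 lower of 9 tested, around a median of 0.00 on the log2 scale. The shares over all tested genes were 13.5% higher and 15.3% lower. S1PR1, the sphingosine-1-phosphate receptor used in leaving the thymus, had 28, 19 and 19 reads in scramble and 5, 14 and 4 reads in hairpin libraries. In CPM it was 0.449, 0.426 and 0.317 in scramble and 0.0842, 0.142 and 0.0771 in hairpin libraries, so the groups were separate at low levels. The log2 fold change was -1.88 (SE 0.515, edgeR adjusted p = 0.00451), and of tested genes under 1 CPM 1.10% were lower and 4.90% higher. CD69, an activation marker that binds S1PR1 at the cell surface, rose by log2 0.38 (edgeR adjusted p = 0.000134). CDKN1A, the p21 inhibitor that KLF factors can induce, rose by log2 1.06, from 5.29 ± 0.518 to 11.0 ± 0.197 CPM (edgeR adjusted p = 4.95e-12). CDKN1B, with overlapping groups, passed at -0.07 (edgeR adjusted p = 0.0402), a call lost in 9 of 14 alternatives, among them the fits without scramble replicate 1 or 2 or hairpin replicate 1 or 2; over all 14 its adjusted p ran from 0.00449 to 0.201.

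In the TGF-beta list, which holds known inputs and feedback genes of KLF10 and KLF11, 1 of 11 tested genes was higher and 2 were lower. The list median was -0.01 on the log2 scale. Over all tested genes the shares were 13.5% higher and 15.3% lower, 28.8% in either direction. SKIL, a SMAD corepressor gene, fell by 0.22 on the log2 scale (edgeR adjusted p = 6.17e-06) and the receptor gene TGFBR1 by 0.11 (edgeR adjusted p = 0.0164). The call of TGFBR1 was lost without scramble replicate 2 (adjusted p = 0.0675). SMAD2, with overlapping groups, passed at 0.07 (edgeR adjusted p = 0.0370), a call lost in 7 of 14 alternatives, among them the fits without scramble replicate 2 or 3 or hairpin replicate 2 or 3; over all 14 its adjusted p ran from 0.00820 to 0.273. SMAD7, which KLF10 is known to repress, measured 2.65 and 2.73 CPM on average (edgeR adjusted p = 0.819).

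KLF2, KLF4, KLF6 and KLF10 are also known as early response genes, and a list of others was followed. Of its 20 tested genes 9 were higher, 2 (IER5 and ATF3) were lower and 9 did not pass, around a median of 0.11 on the log2 scale. Of all tested genes 13.5% were higher and 15.3% lower. The list summed to between 1048 and 1061 CPM in scramble and between 1111 and 1161 CPM in hairpin libraries. IER3, JUND and EGR1 rose by log2 0.66, 0.34 and 0.36 (edgeR adjusted p = 9.16e-06, 6.31e-06 and 1.67e-12). With the GC and length correction their values were smaller, at 0.50, 0.17 and 0.28, and still passed. KLF2 and KLF6 fell in the same libraries. The part of these genes in the KLF10 result was not tested.

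**Figure D4:**
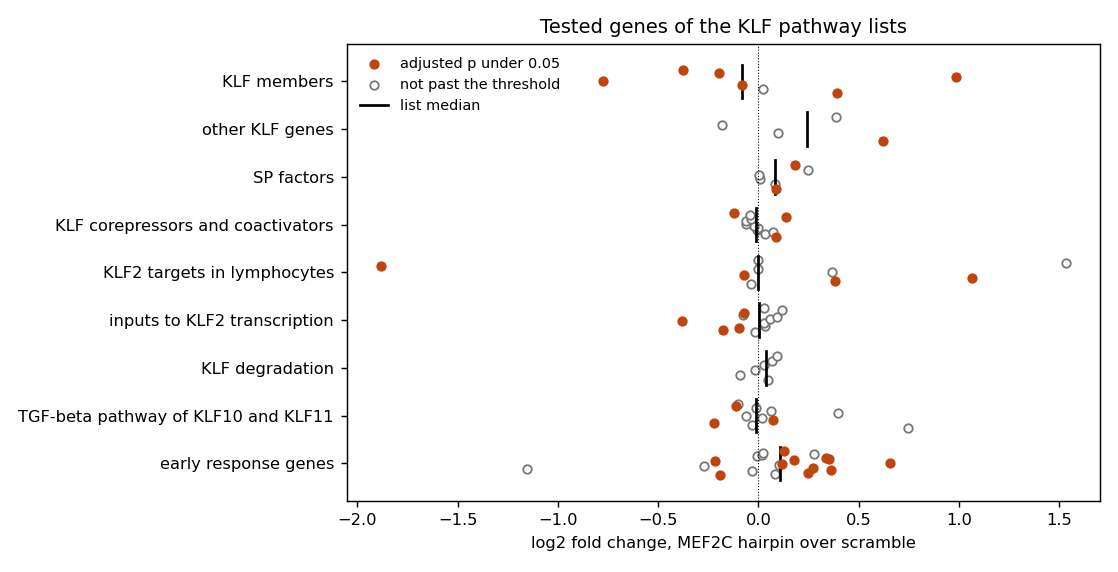
Log2 fold change of the tested genes in each list of KLF-related genes, 1 point a gene, filled where the adjusted p was under 0.05, with the list median as a bar. The KLF members spread from -0.77 to 0.98 around a median of -0.08, and most partner, ligase and TGF-beta genes lie near 0.

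The 6 KLF calls were found in each of the 14 alternatives, which included leaving out any 1 library. KLF2 ranged from -0.94 to -0.70, KLF3 from 0.85 to 1.08, KLF7 from -0.45 to -0.34 and KLF10 from 0.35 to 0.43 on the log2 scale. KLF6 ranged from -0.23 to -0.18 and KLF13 from -0.16 to -0.07.

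**Figure D5:**
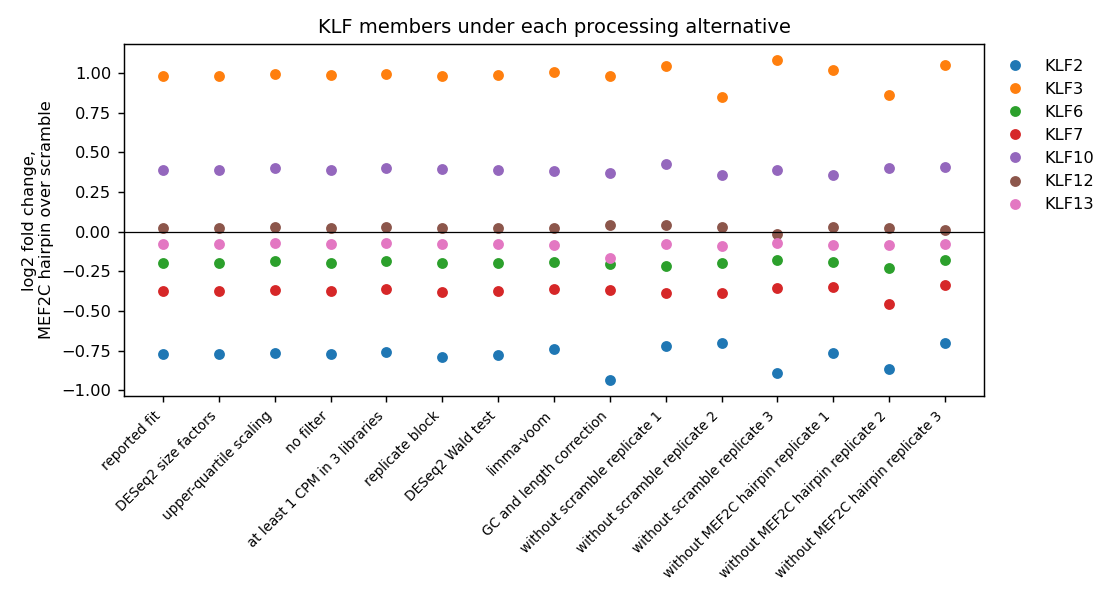
Log2 fold change of the 7 tested KLF members in the reported fit and in 14 alternatives, MEF2C hairpin over scramble. The 6 members that passed the test keep their sign throughout, and KLF12 lies near 0.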

How the data were processed

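RNA was measured in 3 scramble and 3 MEF2C hairpin libraries. The authors deposited, for each library, whole-number counts of reads by gene. The submitters' processing notes name Trim Galore, STAR and HTSeq with hg38; versions, annotation release and strand setting are not given in the sources used here. RNA came from TRIzol extraction and libraries from a TruSeq kit, per the labels' protocols. The 5 summary lines per file, 19.2% to 31.4% of reads, stayed out of library sizes and tests.

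Genes were kept by filterByExpr (minimum count 10), scaled by TMM and tested with edgeR 4.0.16 under R 4.3.3 (quasi-likelihood, robust, group as the only term), with Benjamini-Hochberg adjustment over 17677 genes at 0.05. Each SE was derived by dividing the size of the log2 fold change by the root of the F statistic. CPM of tested genes use TMM-scaled totals, that of others gene totals. Symbols matched 94.2% of tested genes without version suffix. Gene positions and lengths come from GENCODE 29 on GRCh38, and overlaps are counted on either strand. Floors cover counting error only. The test was also tried on simulated counts.

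The members and lists were chosen with earlier results of these data known. Named genes were the members, MEF2C, up to 3 called genes per list with the smallest adjusted p, the 3 genes most correlated with 1 member per direction (mean of at least 5 CPM), and others where a count of at most 5 is given; KLF and list genes named without passing the test were chosen after their values were seen. Some genes of the lists are counted but not reported by name here. Alternatives were 2 other scalings, 2 other filters, each library left out, a block on the replicate number, limma-voom (limma 3.58.1) and DESeq2 1.42.0; the GC and length correction was added after seeing the data. Libraries within a group gave a chi-square of 3.31 to 4.46 per gene, so none was taken as a repeat deposit.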

Additional observations from a re-analysis of the deposited data

Results flagged for a closer look

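Reads that the counting assigned to no feature enter none of the comparisons. They took 12.2 ± 0.283% of reads in the MEF2C hairpin libraries and 11.5 ± 0.194% in the scramble libraries (SD, n = 3 each). Where in the genome these reads lie is not given. Each hairpin library lay above each scramble library.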

How the results depend on the processing

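The counts of 2 KLFs higher and 4 lower were the same in all 14 alternatives, and the count of all genes called ranged from 4113 to 5732, against 5097. Leaving out 1 library at a time gave 4113 to 4608 genes. KLF12, which passed no test, ranged from -0.015, without scramble replicate 3, to 0.044 on the log2 scale when 1 library was left out, the 1 reversal among the genes for which alternatives were run (the tested KLFs and called genes of the lists). With the replicate number as a block 4892 genes were called, and the 6 KLF calls stood (KLF2 -0.79, KLF3 0.98). Same-numbered libraries of the groups correlated at -0.020, -0.0024 and 0.067 in their deviations from the group means, so the numbers were not taken to pair the libraries. Each group is 1 hairpin in 1 line measured as technical replicates, and KLF2, KLF3 and S1PR1 rest on few reads. KLF4, KLF9 and KLF11 were not detectable at this depth.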
